A study of Capra hircus with 6 samples.

Results

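EED, listed as ENSCHIG00000015509, encodes a core subunit of Polycomb repressive complex 2, and its RNA level was followed in goat (Capra hircus) 8-cell embryos after knockdown of YBX1. EED is 1 gene of the 5154 in the deposited table. It was taken for the role of its protein in early embryos and because the study names it, and its row was found by the pairing of the identifier with the symbol in the study's table of skipped exons. Zygotes obtained by in vitro fertilization were microinjected into the cytoplasm with 20 µM siRNA against YBX1 or with a universal negative control siRNA, and embryos of both groups were collected 72 h later. Each group had 3 libraries. According to the methods, 30 embryos of each group were pooled in 3 replicates, and nothing describes the replicates as separate injection sessions, so p-values measure the spread between these libraries.

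Polycomb repressive complex 2 places methyl groups on lysine 27 of histone H3, a mark of genes held silent. Its catalytic subunit is EZH2 or EZH1, which needs EED and SUZ12 to be active. EED folds into a ring of WD40 repeats that binds the methylated histone tail and stimulates the enzyme, so that the mark can be copied along chromatin. In mammalian embryos the complex is known for silencing developmental genes, for a form of imprinting inherited from the oocyte and for inactivation of the X chromosome, and EED is named after the failure of embryonic ectoderm development in its absence.

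The deposited values are FPKM, fragment counts scaled by gene length and by the library total. All 5154 genes had been called differentially expressed by the authors, so the presence of EED in the table already reflects a difference between these libraries, and tests on it are no independent check. An FPKM value is also a share of the library, so that less EED RNA and more of other RNA cannot be told apart. The fragment counts behind the values could be recovered as whole numbers, with library totals between 10354990 and 12688297. Only 456 genes (8.85%) of the table could be paired with a symbol. YBX1 was not among them, so the target of the siRNA was not analysed here. The pairing came from the study's list of exons whose skipping differed between the groups. Genes with a symbol, and so all list members followed here, were therefore selected by a further difference between these same libraries. The study also examined exon skipping in EED, which gene-level FPKM cannot show and which was not analysed here.

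EED was measured at a lower level after YBX1 knockdown than in the controls. It was 74.8, 96.0 and 99.3 FPKM in controls 1, 2 and 3, and 47.7, 40.9 and 50.6 FPKM in knockdown libraries 1, 2 and 3. No knockdown library reached any control, and control 1 was the lowest control. The mean was 90.0 ± 13.3 FPKM in the controls and 46.4 ± 5.0 FPKM after knockdown (SD, n = 3 each), which left 51.5% of the control level. Over the 9 pairs of a knockdown library and a control, the knockdown level was between 41.2% and 67.6% of the control level.

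**Figure D1:**
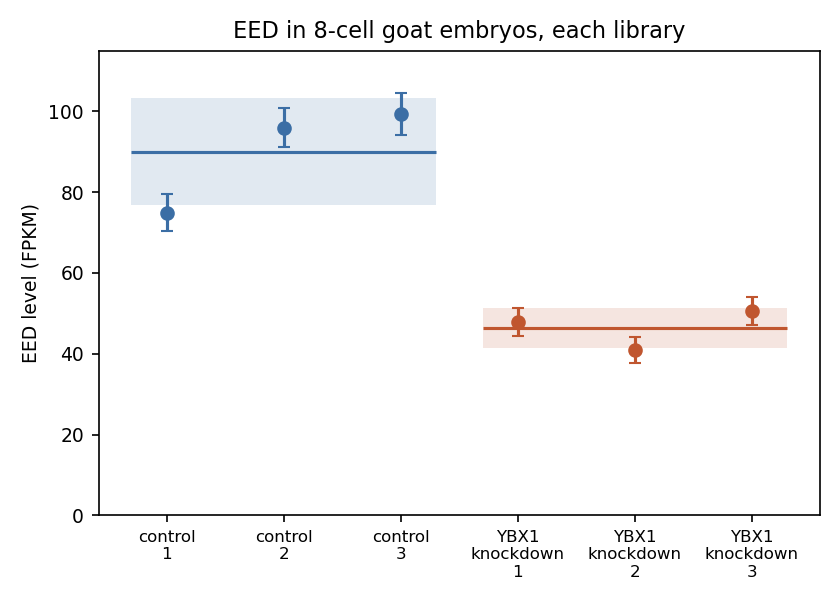
EED level (FPKM, vertical axis from 0) in each of the 6 libraries. Points are libraries with 95% Poisson intervals for counting error, lines and shaded bands are group means ± SD (n = 3 each); the 3 knockdown libraries lie between 40.9 and 50.6 FPKM and the 3 controls between 74.8 and 99.3 FPKM.

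Depth did not limit this comparison. EED was covered by 1027, 1552 and 1455 fragments in the controls and by 766, 607 and 851 fragments in the knockdown libraries, over a gene length of 1326 bases. The libraries of the 2 groups nearest to each other were control 1, with a 95% Poisson interval of 70.3 to 79.5 FPKM, and knockdown library 3, with 47.2 to 54.1 FPKM. With 3 fragments as the smallest number told from 0, EED would have been detectable from between 0.178 and 0.218 FPKM, depending on the library. Intervals and floors of this kind account for counting error alone, because the libraries carried no molecular identifiers to set PCR copies apart. The counting intervals of controls 2 and 3 overlapped, while control 1 lay below both by more than its interval.

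On the log2(FPKM + 1) scale, EED had a mean of 6.50 ± 0.22 in the controls and 5.56 ± 0.16 after knockdown (SD, n = 3 each). The log2 fold change was -0.94, with a standard error of 0.37 and a 95% interval from -1.74 to -0.13. The adjusted p was 0.0303 (unadjusted p = 0.0268, from limma, adjusted by Benjamini-Hochberg across the 4500 genes whose mean reached 1 FPKM). EED therefore passed an adjusted p of 0.05 but not the fold minimum of 1 on the log2 scale, and was not counted among the changed genes, of which 56.2% of those tested were lower and 34.1% higher. The separation of all libraries is as far as 3 against 3 can go (p = 0.1 in a two-sided exact permutation test, which is the lowest it allows). The same separation was seen downwards in 57.8% of the tested genes and upwards in 33.8%.

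EED had a small difference and a small spread for this table. Among the 2951 tested genes with a negative log2 fold change, 283 (9.59%) had a smaller fall than EED, and the median was -1.77. The pooled SD within groups was 0.19 for EED on the log2 scale and 0.51 for the median tested gene, and 117 of the 4500 genes (2.6%) had a smaller one. The standard error of limma borrows from the spread of the other genes, and is therefore wider than the spread of EED alone would give.

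The estimate for EED depended on the scaling between libraries, and its sign changed with median of ratios alone. Median of ratios scaling gave a log2 fold change of 0.049 (95% interval -0.84 to 0.93), an equal FPKM sum gave -0.23 (-1.07 to 0.61), and quantile normalization gave -0.41 (-1.22 to 0.39). These scalings shifted the median tested gene by 0.86, 0.62 and 0.68 on the log2 scale, and could only be computed from genes that the authors had called. Most of those genes were lower after knockdown, so such a scaling moves a modest fall toward 0 by construction. The direction of EED therefore cannot be settled by it. In the authors' own comparison, every gene of the table, EED included, had a log2 fold change above 1 in size. The share of lower genes among all changed genes was 62.3% without scaling, and 47.8%, 52.5% and 47.5% with these scalings. Single libraries also moved the call. Without control 1 the log2 fold change was -1.06 with an adjusted p of 0.0437 (limma), and EED then passed both thresholds. Without control 2, knockdown library 1, knockdown library 2 or knockdown library 3, the adjusted p was 0.0511, 0.0690, 0.0902 and 0.0545 (limma), and the log2 fold change lay between -1.0 and -0.85.

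**Figure D2:**
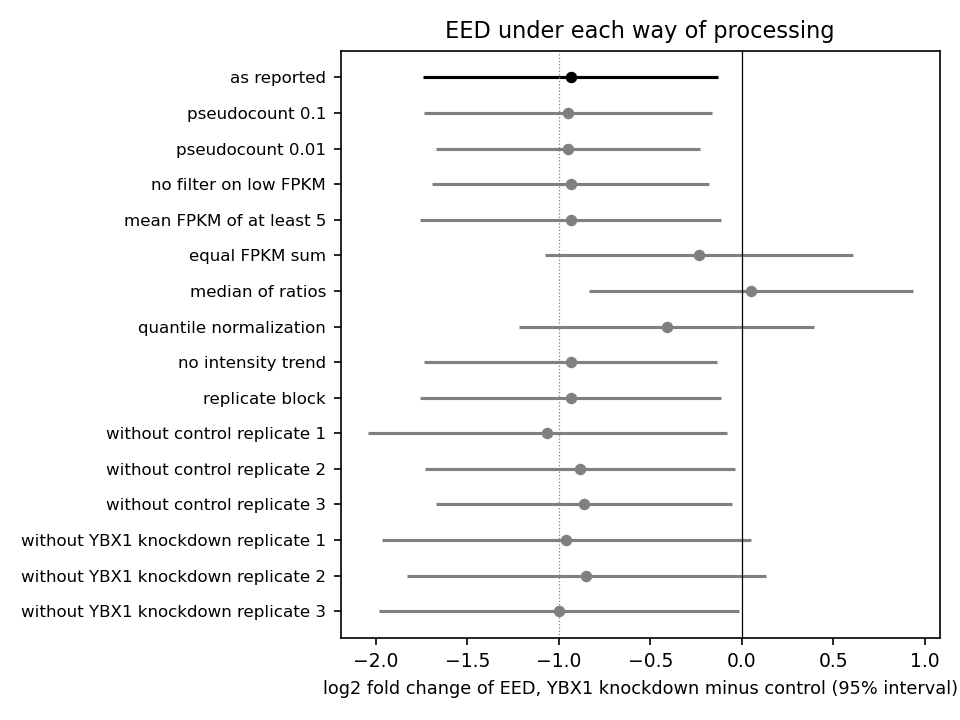
Log2 fold change of EED (horizontal axis, YBX1 knockdown minus control; dotted line at the fold minimum) with its 95% interval from limma, as reported and under each alternative. The values without scaling lie between -1.06 and -0.85, and the 3 scalings between libraries move EED to between -0.41 and 0.049.

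Ranks within a library do not depend on these scalings, and ratios between genes of a library change with quantile normalization alone. Ranked by FPKM among all genes of the table, EED stood at percentile 82.2, 84.5 and 85.8 in controls 1, 2 and 3, and at percentile 81.8, 80.1 and 81.4 in knockdown libraries 1, 2 and 3. EED was thus among the abundant genes of the table in every library, and the groups did not overlap. The mean rank was 84.2 ± 1.81 in the controls and 81.1 ± 0.895 after knockdown (SD, n = 3 each), a difference of -3.09 percentile points (p = 0.1 in the same exact permutation test). The ranks are relative to a table in which most genes were lower after knockdown and 34.1% of the tested genes were called higher. Genes that rise past EED lower the rank of EED without any fall in its own level.

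EED was then set against 3 other genes in the same libraries. They were YY1, the other member of the Polycomb list with a row, and EIF3I and HNRNPM, whose exon skipping the study shows beside that of EED. BRCA1, the remaining gene of that set, could be paired with an identifier but had no row. It was therefore not among the genes the authors called. YY1 encodes a DNA-binding protein related to a fly factor that recruits Polycomb proteins. Its level was 80.5, 134 and 36.3 FPKM in controls 1, 2 and 3, and 12.9, 10.2 and 14.8 FPKM in knockdown libraries 1, 2 and 3. All knockdown libraries lay below all controls, and control 3 was the control nearest to them. YY1 fell by 2.46 on the log2 scale (standard error 0.49, adjusted p = 0.00124 from limma). The log2 ratio of EED to YY1 was -0.11, -0.48 and 1.45 in controls 1, 2 and 3, and 1.89, 2.0 and 1.78 in knockdown libraries 1, 2 and 3. EED was the less abundant of the pair per length in controls 1 and 2, and the more abundant in control 3 and in every knockdown library. The difference in the ratio was 1.60 on the log2 scale (Benjamini-Hochberg adjusted p = 0.15 over 3 comparators, exact permutation test, two-sided).

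EIF3I encodes a subunit of translation initiation factor eIF3, itself a WD40 repeat protein. It fell by 1.26 on the log2 scale (standard error 0.37, adjusted p = 0.00804 from limma), with 438 ± 67.8 FPKM in the controls and 181 ± 6.4 FPKM after knockdown (SD, n = 3 each). The log2 ratio of EED to EIF3I was -2.42, -2.43 and -2.00 in controls 1, 2 and 3, and -1.94, -2.19 and -1.78 in knockdown libraries 1, 2 and 3, and the groups overlapped. EIF3I did not pass the thresholds under any of the 3 scalings, with log2 fold changes of -0.54, -0.26 and -0.50 for equal FPKM sum, median of ratios and quantile normalization (adjusted p = 0.211, 0.584 and 0.242 from limma). The difference in the ratio was 0.31 (adjusted p = 0.2, exact permutation test), and over the 9 pairs of libraries it ranged from -0.19 to 0.64. HNRNPM, which encodes a heterogeneous nuclear ribonucleoprotein that takes part in splicing, fell by 1.91 on the log2 scale (standard error 0.40, adjusted p = 0.00171 from limma), with 228 ± 49.03 FPKM in the controls and 61.01 ± 20 FPKM after knockdown (SD, n = 3 each). With median of ratios scaling the log2 fold change of HNRNPM was -0.92 (adjusted p = 0.0698 from limma), and the call was lost. The log2 ratio of EED to HNRNPM was -1.28, -1.54 and -1.16 in the controls, and 0.023, -1.04 and -0.043 after knockdown. The groups did not overlap, with knockdown library 2 close to the controls, and the difference was 0.97 (adjusted p = 0.15, exact permutation test). With 3 against 3, none of these 3 differences could reach an adjusted p under 0.1.

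**Figure D3:**
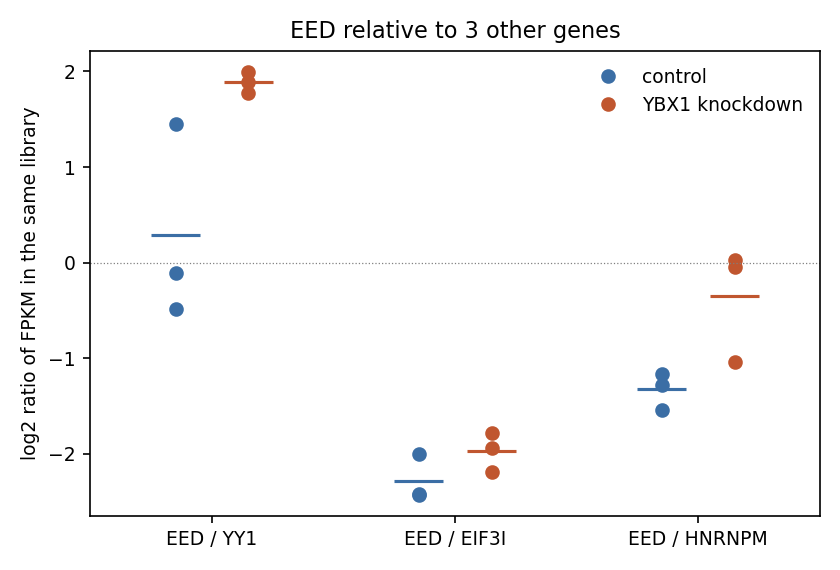
Log2 ratio of the FPKM of EED to that of YY1, EIF3I and HNRNPM in the same library (vertical axis). Points are libraries and bars group means (n = 3 each); the ratio was higher after knockdown for YY1 and HNRNPM with no overlap between the groups, while the groups overlapped for EIF3I.

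The genes whose pattern over the 6 libraries was most like that of EED were sought among the 455 other tested genes with a symbol, by the Euclidean distance of log2(FPKM + 1) values centred on the mean of each gene. KCTD20 was nearest (distance 0.31), followed by RAP1GDS1 (0.31), PSMB4 (0.37), LIN54 (0.41) and PTPN2 (0.43). Among all tested genes they held places 5, 6, 10, 15 and 19, with genes without a symbol in the places between and before. RAP1GDS1 encodes an exchange factor for small GTPases, PSMB4 a subunit of the proteasome core, LIN54 the DNA-binding subunit of the DREAM cell cycle complex and PTPN2 a tyrosine phosphatase. KCTD20 had 14.6, 17.0 and 20.8 FPKM in controls 1, 2 and 3, and 9.05, 9.29 and 10.5 FPKM in knockdown libraries 1, 2 and 3. RAP1GDS1 had 29.5, 44.6 and 46.4 FPKM in the controls and 17.8, 18.2 and 19.3 FPKM after knockdown. The low value in control 1 and the similar values of controls 2 and 3 in RAP1GDS1 were those of EED. The log2 fold changes of the 5 genes were between -1.06 for RAP1GDS1, which passed both thresholds (adjusted p = 0.0208 from limma), and -0.68 for PTPN2. RAP1GDS1 lost this call under all 3 scalings (-0.37, -0.094 and -0.60 for equal FPKM sum, median of ratios and quantile normalization), and without control 2, control 3, knockdown library 1 or knockdown library 2, where it lay between -1.05 and -0.94. With median of ratios scaling, the log2 fold changes of KCTD20, PSMB4, LIN54 and PTPN2 lay above 0, as did that of EED. Genes chosen for the pattern of EED over these libraries share its control values and its shift under a scaling by that choice. Likeness measured by correlation instead of distance kept 2 of the 5 genes, RAP1GDS1 and KCTD20.

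Control 3 was the highest control for EED, and for the 5 genes chosen for their likeness to it. Over all tested genes, control 3 was the lowest control in 1747 and the highest in 1679. It was the lowest control in 1637 (55.5%) of the 2951 tested genes with a negative log2 fold change, and the highest in 608 (20.6%). TNFAIP6, a gene of cumulus cells, had 20.5 FPKM in control 3 and between 1.73 and 2.38 FPKM in the other libraries. It was the 1 marker of 10 for cumulus and granulosa cells that could be paired with an identifier, and it had a row. The part of such cells in the level of EED in control 3 was not tested. Control 3 was also the highest control for H1-8 and PATL2, the 2 markers of oocytes and cleavage embryos with a row. H1-8 had 252, 194 and 680 FPKM in controls 1, 2 and 3, and between 859 and 1393 FPKM after knockdown. PATL2 had 2.93, 2.78 and 4.19 FPKM in the controls, and between 23.8 and 26.1 FPKM after knockdown. Without control 3 the log2 fold change of EED was -0.86, with an adjusted p of 0.0426 (limma).

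**Figure D4:**
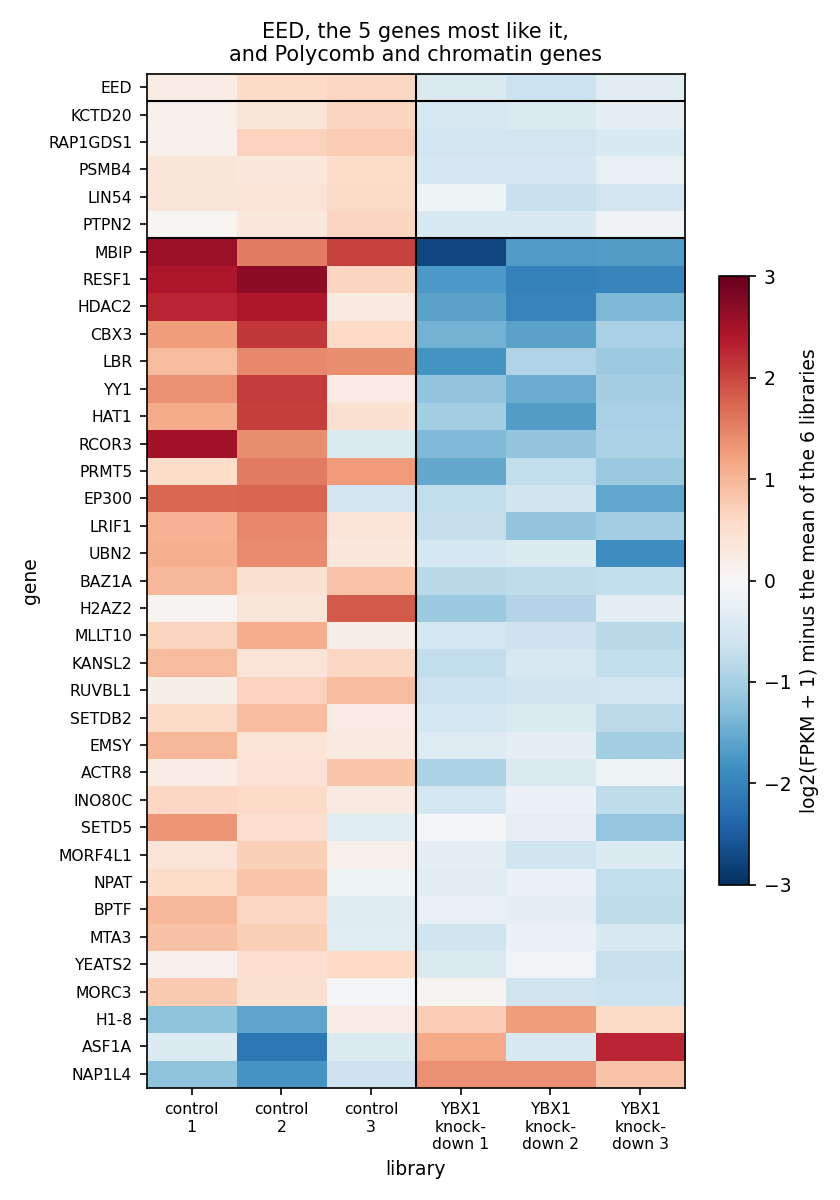
Log2(FPKM + 1) of each gene minus its mean over the 6 libraries (colour, red above and blue below the mean, limited to ±3), for EED, the 5 genes with a symbol most like it, and the Polycomb and chromatin genes (rows) in each library (columns). EED and the 5 genes have pale rows with control 3 as the highest control, while RESF1, HDAC2 and YY1 have their lowest control value there.

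Of the 48 genes of the Polycomb list, 6 could be paired with an identifier, and EED and YY1 had a row. EED was the 1 of 6 core genes of Polycomb repressive complex 2 that could be followed, and EZH1, EZH2, SUZ12, RBBP4 and RBBP7 were not analysed here. Of the 8 accessory genes of the complex, 1 could be paired, and of the 26 genes of Polycomb repressive complex 1, 2 could be paired. None of these had a row, so they were not among the genes the authors called. In the group of YY1, 2 of 6 genes were paired and YY1 alone had a row. The 2 demethylase genes that remove the mark could not be paired and were not analysed here. Of EED and YY1, only YY1 was called lower and neither was called higher, where 56.2% of all tested genes were called lower and 34.1% higher. On an adjusted p under 0.05 with no fold minimum, both EED and YY1 were lower, where 58.8% of all tested genes were lower and 34.4% higher.

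Among 116 other genes of chromatin regulation, 57 had an identifier and 30 had a row and were tested. Of these, 19 were called lower and 3 higher, beside 56.2% and 34.1% of all tested genes. Those shares cover genes with and without a symbol, while the 30 all have one. With equal FPKM sum, median of ratios and quantile normalization, 9, 8 and 10 were lower and 3 higher in each. Of the 4500 tested genes, 1713, 1416 and 1403 were then lower and 1549 higher in each. Without scaling, the median log2 fold change of the 30 was -1.26, where that of all tested genes was -1.24. In 23 of the 30 no knockdown library reached any control, and in 2 the separation was upwards, beside 57.8% and 33.8% of all tested genes. EED had a smaller fall than 21 of the 27 with a negative log2 fold change. By level per length, EED held place 10 of the 32 Polycomb and chromatin genes both in the controls and after knockdown. Control 3 was the lowest control in 18 of the 27 and the highest in 4, where EED had its highest control value.

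The list members with the largest falls moved much further than EED. MBIP, which encodes a subunit of the ATAC acetyltransferase complex, was at 103, 50.7 and 72.1 FPKM in controls 1, 2 and 3 and at 1.63, 4.43 and 4.56 FPKM in knockdown libraries 1, 2 and 3. It fell by 4.09 on the log2 scale (adjusted p = 9.07e-05 from limma). RESF1, a regulator of retroelement silencing that acts with SETDB1, fell by 3.84 (adjusted p = 0.000212 from limma), with 61.95 ± 36.2 FPKM in the controls and 2.76 ± 0.449 FPKM after knockdown (SD, n = 3 each). The histone deacetylase gene HDAC2 was at 97.1, 106 and 23.1 FPKM in the controls and at 5.54, 3.99 and 6.83 FPKM after knockdown. In both HDAC2 and RESF1, control 3 lay between the other controls and the knockdown libraries. HDAC2 fell by 3.32 (adjusted p = 0.000551 from limma). EP300 encodes an acetyltransferase that acts on the same histone residue as the Polycomb complex. Its levels were 90.4, 90.5 and 17.6 FPKM in the controls and 15.4, 17.2 and 8.27 FPKM after knockdown, so that control 3 nearly reached knockdown library 2. EP300 fell by 1.94 on the log2 scale (standard error 0.60, adjusted p = 0.0103 from limma).

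Further members of the list with the largest fall in their group were PRMT5, an arginine methyltransferase gene, UBN2, a gene of the HIRA histone chaperone complex, and BAZ1A, a remodeller gene. Their log2 fold changes were -2.26, -1.87 and -1.55, in this order (adjusted p = 0.00101, 0.00497 and 0.00311 from limma). BAZ1A had 119 ± 22.3 FPKM in the controls and 39.7 ± 1.13 FPKM after knockdown (SD, n = 3 each). EP300, UBN2 and BAZ1A did not pass the thresholds with equal FPKM sum or median of ratios scaling, and EP300 also not with quantile normalization or without control 2 (adjusted p = 0.0548 and 0.0588 from limma).

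The 3 genes that rose, opposite to EED, were all in the group of histones and chaperones. That group was divided, as 2 of its 6 tested genes were called lower. NAP1L4, a histone chaperone gene, had 9.21 ± 3.97 FPKM in the controls and 51.01 ± 9.90 FPKM after knockdown (SD, n = 3 each), and rose by 2.40 on the log2 scale (adjusted p = 0.000698 from limma). ASF1A and H1-8 rose by 1.99 and 1.70 (adjusted p = 0.0157 and 0.00822 from limma). The groups overlapped in ASF1A. H1-8, the oocyte linker histone, and PATL2 were the 2 of 13 markers of oocytes and cleavage embryos that could be paired with an identifier. Both had a row and rose, where 34.1% of all tested genes were called higher. Of the 6 markers for sperm, 1 could be paired and had no row. None of the 5 for trophectoderm could be paired, so they were not looked up.

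**Figure D5:**
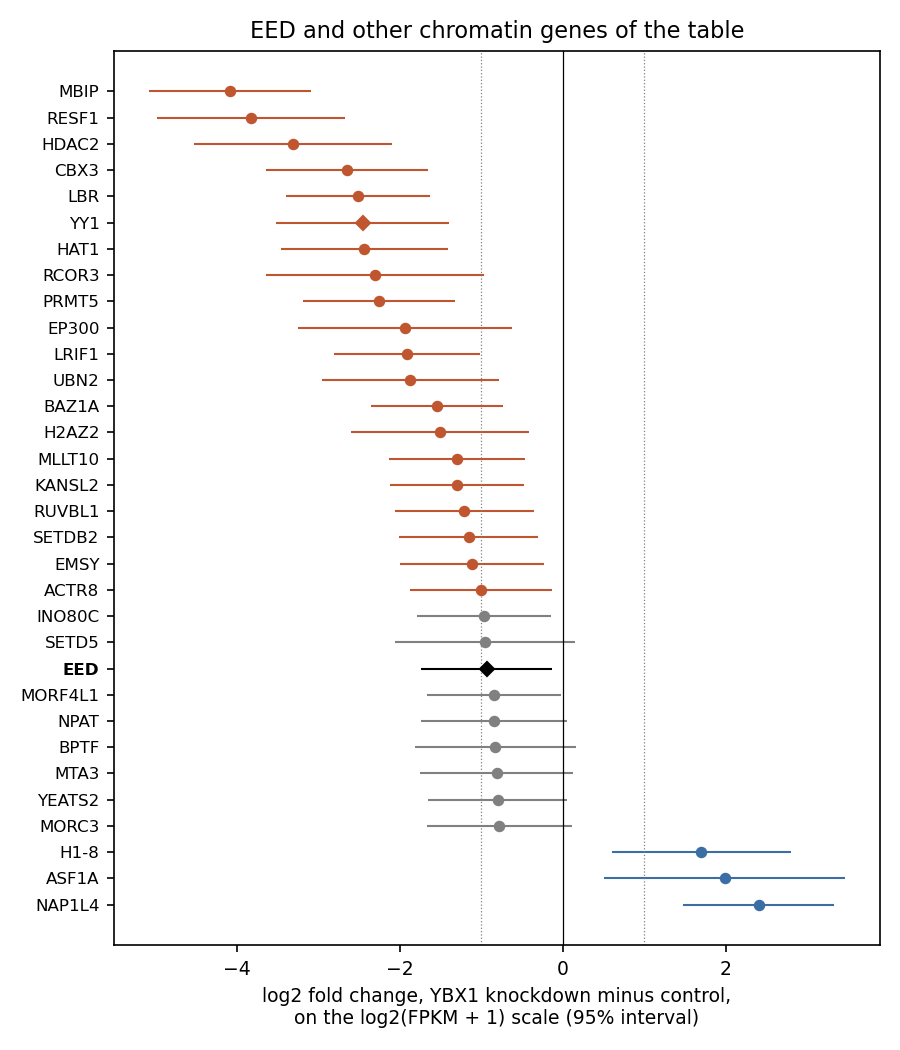
Log2 fold change on the log2(FPKM + 1) scale with its 95% interval from limma (horizontal axis) for the 2 Polycomb genes (diamonds) and the 30 other chromatin genes (circles) with a row. EED is black, genes called lower are orange, genes called higher are blue and the others are grey; dotted lines mark the fold minimum. EED lies at -0.94, between MBIP at -4.09 and NAP1L4 at 2.40.

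EED had no annotated gene overlapping it in the RefSeq gene table of assembly ARS1.2, so that no annotated overlap adds reads to its count there. Its nearest protein-coding genes in that order are HIKESHI and PICALM. Of the 10 protein-coding genes on each side of EED, none was among the 456 genes of the table with a symbol.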

How the data were processed

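The authors made Smart-seq2 libraries, used fastp for trimming and HISAT2 for alignment to goat genome ARS1, counted uniquely mapped reads with featureCounts and deposited FPKM values per library. The tool that computed FPKM is not given in the sources used here. Further deposited columns give the p-value, its adjusted form and the log2 fold change from the authors' DESeq2 comparison. They were not used, other than to see that all 5154 genes passed 0.05 on the adjusted p-value and 1 on the size of the fold change. The tests had been planned for all genes, so adjustment over called genes is mild.

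Groups and replicate numbers came from the library titles. Fragments were recovered from the steps between FPKM values, for 5152 genes, with 6 of 6 simulated totals recovered, and served depth only. The 4500 genes whose mean reached 1 FPKM were fitted on the log2(FPKM + 1) scale by limma 3.58.1 under R 4.3.3 (lmFit, then eBayes with an intensity trend). A fold change on this scale understates the change of genes with low FPKM. A call needed a log2 fold change of at least 1 in size and an adjusted p (Benjamini-Hochberg) under 0.05. The fit was tested on simulated data in which few genes changed. Such a test does not cover a table that holds only called genes. Permutation tests used scipy 1.17.1. Symbols came from the 1130 identifiers paired with one in the part of the study's differential skipped exon sheet given here. The gene and the lists were chosen with earlier results of these data known. Named genes are EED, Polycomb list members with a row, EIF3I, HNRNPM and the largest fall and rise in each chromatin group. The 5 genes with a symbol most like EED were also named. ASF1A, H1-8, PATL2 and TNFAIP6 were named as list results after their values were seen.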

Additional observations from a re-analysis of the deposited data

How the results depend on the processing

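EED remained outside the thresholds except without control 1 and with no fold minimum, where the value of -0.94 passed on its adjusted p alone. Leaving out each library gave log2 fold changes of EED from -1.06 to -0.85, and 1 to 2 Polycomb genes called lower, 2 also with no fold minimum. With median of ratios scaling the log2 fold change of EED was 0.049, and those of KCTD20, PSMB4, LIN54 and PTPN2 were 0.14, 0.17, 0.036 and 0.31. With an equal FPKM sum that of PTPN2 was 0.031. With equal FPKM sum, median of ratios and quantile normalization, the other chromatin genes called lower numbered 9, 8 and 10 instead of 19, while 3 were called higher in each. Over the table, 1713 genes were lower with equal FPKM sum, 1416 with median of ratios and 1403 with quantile normalization instead of 2530. The cause was not tested, beyond the shift of all genes that these scalings bring by construction. Ranked among genes whose mean reached 5 FPKM, EED differed by -4.88 percentile points. The differences in the ratios of EED to YY1, EIF3I and HNRNPM kept their direction without any 1 library. Pseudocounts of 0.1 and 0.01, other filters and no intensity trend moved the log2 fold change of EED by less than its spread between libraries.

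Same-numbered libraries deviated together with correlations across genes of 0.095, 0.14 and 0.16, of which the first did not exceed the 0.1 required of every pair, so the numbers were not taken as pairs. Every library correlated best with its own number, a hint from the data and not from the design. In a fit with a replicate block, the log2 fold change of EED was -0.94 (adjusted p = 0.0337 from limma), and 2542 genes were lower and 1535 higher.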
